A study of Drosophila melanogaster with 6 samples.

Results

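The Polycomb group genes considered here were Pc, ph-p, ph-d, Psc, Sce, E(z), esc, Su(z)12 and Su(z)2, together with trx, which belongs to the opposing trithorax group. They were chosen by name, by current symbol or older name, and not by their values, but with earlier results of these data known. Of these 10 genes, 7 had a named probe set, 1 each, out of 11953 genes with a named probe set on the array. No probe set carried the name of ph-p, ph-d or Su(z)2 in the probe table used, so these 3 were not analysed here. ph-p and ph-d are the only X-linked members, so X-linked and autosomal members could not be compared directly.

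Expression was measured in whole male Drosophila melanogaster larvae of the third instar, with 50 larvae pooled in each of 3 separate RNA preparations of a genotype, on single-colour Affymetrix Drosophila Genome 2.0 arrays. The mutant genotype was y+ w roX1- roX2-/ Y, with SMC17A as the roX1 allele, and the control genotype was y+ w roX1+ roX2-/ Y. Both groups therefore lacked roX2, and the control, called wild type in the labels, was not wild type at that locus. The roX transcripts are RNA components of the MSL complex, which raises transcription of the single X chromosome of males. Neither roX gene was named in the probe table, so the arrays give no check of the genotype itself.

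Polycomb proteins keep developmental genes silent once their embryonic pattern has been set, and trithorax proteins keep them active. Polycomb repressive complex 2 (PRC2) methylates histone H3 through E(z), with esc and Su(z)12 as essential partners. Polycomb repressive complex 1 (PRC1) reads that mark through the chromodomain of Pc, ubiquitinates histone H2A through Sce and compacts chromatin through Psc or its relative Su(z)2. In larvae the classical targets are the Hox genes and other patterning genes of imaginal discs and the nervous system.

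All signals below are on a scale on which the median of tested autosomal genes was 100 on each array, so each difference is relative to the autosomal median. Genes were tested with limma if their probe set lay in the upper 50% by mean signal (7801 genes), and a change was called where the Benjamini-Hochberg adjusted p was under 0.05. On this scale 23.1% of tested genes rose in the mutant, 32.4% fell and 55.5% changed in either direction. Arrays correlated at 0.972 or higher across genes within the mutant, at 0.984 or higher within the control and at 0.889 to 0.926 between the groups; genes are not independent replicates. Precision is limited by the number of arrays, which was 3 in each group. In whole larvae, fewer cells of a type and less RNA per cell cannot be told apart.

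Among the measured Polycomb genes, 1 passed the test for a difference between the genotypes. Of the 7 genes with a probe set, 5 passed the signal filter (E(z), Pc, Su(z)12, trx and Sce), and Psc and esc lay under it. E(z) rose, and the other 4 tested genes did not pass. Thus 1 of 5 rose, beside 23.1% of all tested genes, and none of 5 fell, beside 32.4% of all tested genes (limma, also 0 at an unadjusted p under 0.05). The median log2 difference of the 5 was 0.04, against -0.06 over all tested genes, whose lower and upper quartiles were -0.37 and 0.26.

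**Figure D1:**
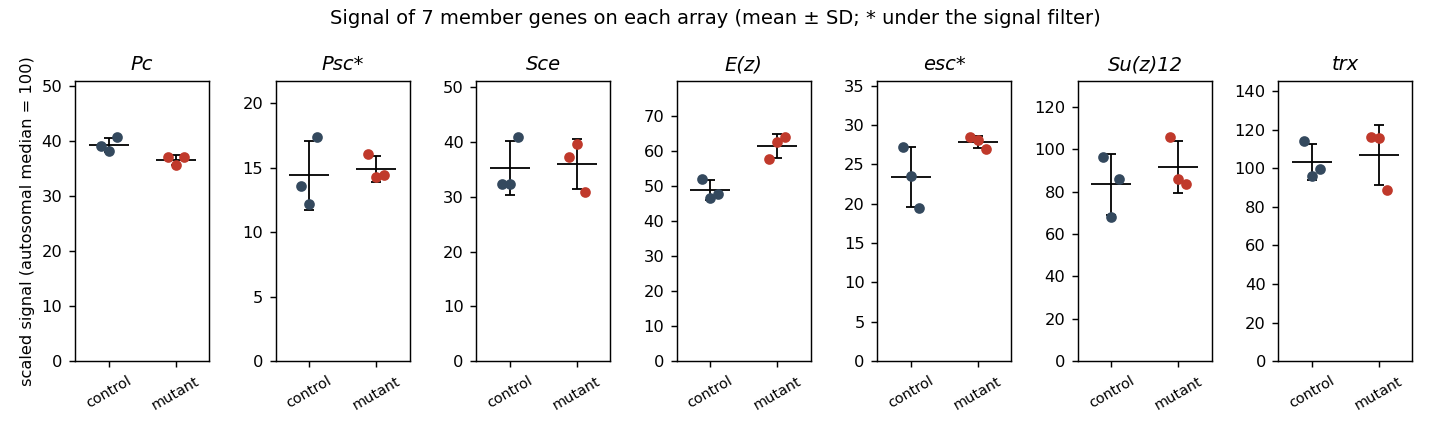
Scaled signal (autosomal median 100, linear axis from 0 with its own range in each panel) of the 7 Polycomb and trithorax members on the 3 control and 3 mutant arrays, with mean ± SD; an asterisk marks genes under the signal filter. The groups are separate for E(z), with the mutant above, and for Pc, with the mutant slightly below, and they overlap for the other 5 genes.

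Of the PRC1 genes, Pc encodes the chromodomain subunit and lies on arm 3L (probe set 1636721_at). Its signal was 37.1, 35.6 and 37.1 in the 3 mutant preparations, against 39.0, 38.2 and 40.7 in the 3 control preparations. All mutant arrays lay below all control arrays, but the gap was narrow: the mean was 36.6 ± 0.875 (SD, n = 3) in the mutant and 39.3 ± 1.30 (SD, n = 3) in the control. The log2 difference of -0.10 (SE 0.087, limma adjusted p = 0.337) did not pass, and its 95% interval ran from -0.30 to 0.10. A complete separation of this kind, mutant below control, was seen in 36.9% of all tested genes. The spread of Pc within groups was small, with a standard deviation of 0.041 on the log2 scale against a median of 0.12 over all genes.

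Sce, the RING subunit with histone H2A ligase activity, lies on arm 3R (1627898_at). Its signal was 37.2, 39.7 and 30.9 in the mutant, compared with 32.3, 32.4 and 40.9 in the control. The groups overlapped fully, as the highest value was a control array and the lowest a mutant array. The log2 difference was 0.03 (SE 0.14, adjusted p = 0.872), with an interval from -0.29 to 0.35.

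Psc, which encodes a second RING protein of PRC1, lies on arm 2R (1631095_at) and was dim. Its probe set stood at percentile 38.9 of all probe sets, under the filter. Signals were 16.1, 14.3 and 14.4 in the mutant, compared with 13.6, 12.2 and 17.4 in the control, and the groups overlapped. In a fit with no signal filter, in which 43.1% of 11953 genes were called, the log2 difference of Psc was 0.07 (limma adjusted p = 0.776). Its interval, -0.31 to 0.45, leaves room for a difference of either sign.

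Among the PRC2 genes, E(z), the histone methyltransferase, lies on arm 3L (1626696_at) and was the member that changed. The 3 mutant preparations gave signals of 57.6, 62.5 and 63.9, against 52.0, 46.6 and 47.5 in the 3 control preparations. Every mutant array lay above every control array, a separation that 26.4% of all tested genes showed. The mean was 61.4 ± 3.29 (SD, n = 3) against 48.7 ± 2.89 (SD, n = 3), a signal 25.9% higher in the mutant. The log2 difference was 0.33 (SE 0.089, limma adjusted p = 0.0136), with a 95% interval of 0.13 to 0.54. Of all tested genes, 21.3% had a difference at least as high. E(z) did not pass without mutant replicate 2 (0.32, adjusted p = 0.0536), the only one of 16 alternative settings in which the call was lost. With an offset of 50 added to every signal the difference was 0.17 and passed.

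The WD-repeat subunit gene esc, on arm 2L (1623519_at), stood at percentile 48.2 of signal, just under the filter. It gave 28.5, 28.1 and 27.0 in the mutant, compared with 27.1, 23.5 and 19.5 in the control. The lowest mutant array and the highest control array nearly coincided. With no signal filter the log2 difference was 0.27 (limma adjusted p = 0.153; interval -0.05 to 0.59).

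Su(z)12, the zinc finger subunit that PRC2 needs for its activity, lies on arm 3L (1623952_a_at). It gave 105.8, 86.1 and 83.5 in the mutant, compared with 96.5, 68.1 and 85.9 in the control. Replicate 1 was highest in both groups and the groups overlapped. The log2 difference was 0.14 (SE 0.15, adjusted p = 0.435; interval -0.20 to 0.48).

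trx encodes a histone methyltransferase that keeps Hox genes active, against Polycomb repression, and lies on arm 3R (1624533_s_at, a probe set type whose probes can match more than 1 transcript). Its signal was 116.1, 115.8 and 89.0 in the mutant, compared with 113.9, 95.9 and 99.8 in the control. The lowest value was mutant replicate 3, and the groups overlapped. The log2 difference was 0.04 (SE 0.13, adjusted p = 0.785; interval -0.25 to 0.34).

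The difference between the E(z) response and that of the 4 other tested members was examined within each array. The log2 difference of E(z) exceeded that of Pc by 0.44, of Sce by 0.30, of trx by 0.29 and of Su(z)12 by 0.19. An exact two-sided permutation test over the arrays gave p = 0.1 for Pc and trx, the smallest possible with 3 against 3, and p = 0.3 for Sce and Su(z)12. Adjusted over the 4 pairs these were 0.2 and 0.3. With 3 arrays a group no pair could reach 0.05, so this test cannot say whether E(z) differs from the other members. The mutant and control arrays were completely separate for the pairs with Pc and trx, which is the same result as their permutation p = 0.1 and adds nothing to it. They overlapped for the pairs with Sce and Su(z)12. E(z) was picked for this comparison after its value was seen.

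**Figure D2:**
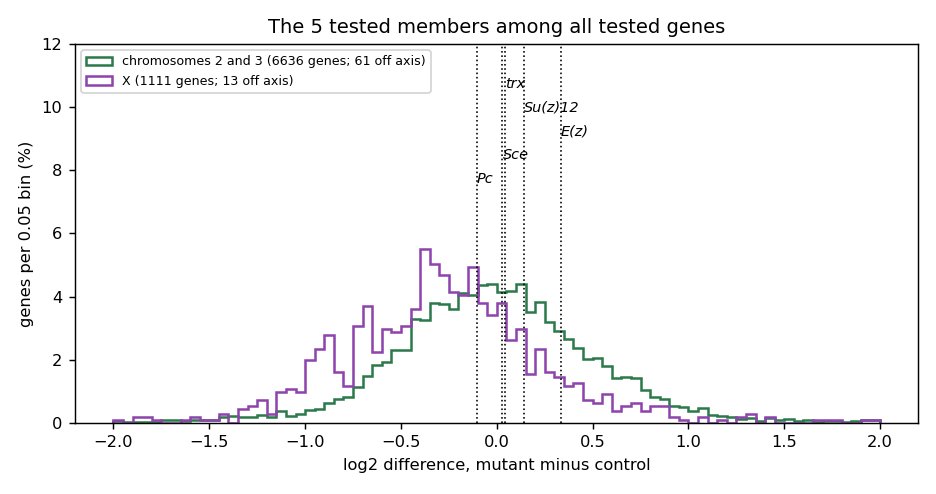
Histogram of the log2 difference (mutant minus control) over tested genes on chromosomes 2 and 3 (6636 genes) and on X (1111 genes), as the percentage of each set per bin, with dotted lines at the 5 tested members. All 5 lie between -0.10 and 0.33, within the bulk of the autosomal genes, and the median of the X-linked genes (-0.29) lies to their left, although the X distribution overlaps them.

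All 7 measured members are autosomal. Arms 2L, 2R, 3L and 3R had medians between -0.05 and 0.01, so taking values relative to the median of the arm changed them little. On that footing E(z) stood at 0.38 and Pc at -0.05. The median X-linked gene stood at -0.29, and 48.1% of X-linked genes fell. The 10 tested genes nearest to ph-p and ph-d on X, 5 on each side of this gene pair, had a median of -0.35, and 6 of them fell and 1 rose. These values belong to the neighbours and give no level of either ph gene.

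Around the adjacent genes Psc and Su(z)2 on arm 2R, the 10 nearest tested genes had a median of 0.57, with 5 rises and 1 fall, among values from -0.81 to 1.27. The 10 neighbours of E(z) had a median of -0.18, with 2 rises and 4 falls, and the highest of them, at 0.326, lay just under E(z). These counts are to be read against the 23.1% of all tested genes that rose and the 32.4% that fell. Neighbours were chosen by gene order alone, a choice made after the members' values were seen.

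The 3 genes with the pattern most like that of Pc over the 6 arrays, by the smallest root mean square difference of centred log2 signal, were Surf4 (0.018), nSMase (0.023) and robl22E (0.027). Their own log2 differences were -0.09, -0.09 and -0.10, and none of the 3 passed.

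Beyond the core, 17 partners of the 2 complexes were listed, 15 had a probe set and 13 were tested. Of these, 2 rose (15.4%, beside 23.1% of all tested genes), 4 fell (30.8%, beside 32.4%) and 7 did not pass, with a median of -0.01. Pcl, the Polycomb-like subunit that stimulates PRC2, showed the largest rise of the list. Its signal was 63.3, 59.9 and 65.9 in the mutant against 41.5, 37.1 and 44.1 in the control (log2 difference 0.63, SE 0.096, limma adjusted p = 0.00115). The groups were far apart for Pcl, and it passed in all 16 alternative settings. Sfmbt, the partner of the DNA-binding protein pho, rose by a smaller amount, from 79.1 to 97.4 (log2 difference 0.30, adjusted p = 0.0196). The Sfmbt call was lost without control replicate 2 (0.0603), control replicate 3 (0.0516) or mutant replicate 2 (0.0745).

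The falls among partners were in lolal, sxc, corto and l(3)73Ah. lolal, which encodes a BTB-domain protein, gave 265.2, 242.9 and 208.4 in the mutant, compared with 382.5, 391.1 and 366.5 in the control, a log2 difference of -0.68 (SE 0.10, limma adjusted p = 0.000975). sxc, the O-GlcNAc transferase gene, gave 410.4, 394.8 and 435.8 against 586.4, 646.1 and 594.9, a log2 difference of -0.56 (SE 0.075, adjusted p = 0.000644). Both were bright, and their groups did not overlap. corto, a chromodomain protein gene, stood at -0.45 (adjusted p = 0.0162), and this call was lost without control replicate 1 (0.0559), control replicate 3 (0.0606) or mutant replicate 2 (0.0598) and without rescaling (0.0854). l(3)73Ah, a RING protein gene related to Psc, stood at -0.20 (adjusted p = 0.0427) and lost its call in 12 of 16 alternative settings, the omission of any 1 array included (0.0572 to 0.128).

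Partners that did not pass, named after their values were seen, included Caf1-55, the histone-binding subunit of PRC2 (-0.01, adjusted p = 0.892), escl, the paralogue of esc (-0.19, 0.141), and Scm, a SAM-domain protein gene (0.24, 0.0526). Jarid2 stood at 0.36 (adjusted p = 0.0801) and Asx, a subunit of the Polycomb deubiquitinase, at 0.22 (0.0506). Scm and Asx each passed in 5 of 16 alternative settings, Jarid2 in 2 and escl in 1. Scm and Asx passed under each of the other scalings.

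**Figure D3:**
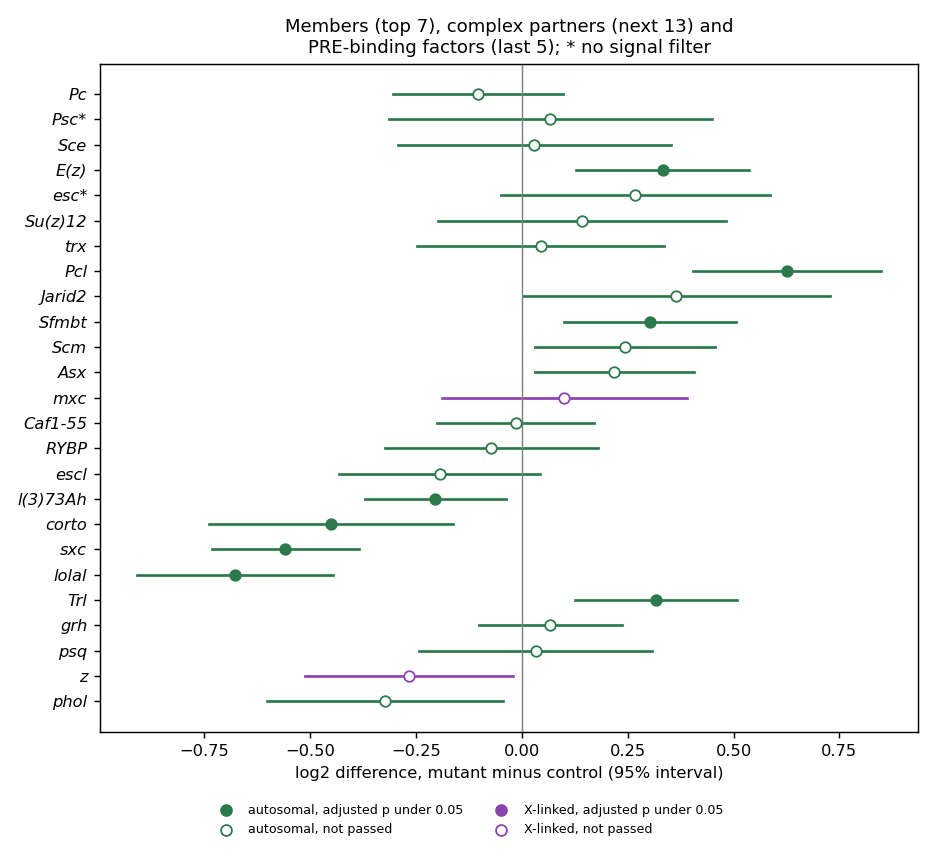
Log2 difference (mutant minus control) with its 95% limma interval for the 7 members, the 13 tested partners and the 5 tested PRE-binding factors, each list in its own block; filled points passed and purple marks X-linked genes. Pcl (0.63) and lolal (-0.68) lie farthest from 0, while the members lie between -0.10 and 0.33.

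Polycomb response elements (PREs) recruit the complexes through sequence-specific DNA-binding proteins. Of 10 such factors listed, 6 had a probe set and 5 were tested. Trl, which encodes the GAGA factor, rose: it gave 112.9, 118.2 and 115.1 in the mutant, compared with 100.1, 87.8 and 90.5 in the control (log2 difference 0.32, SE 0.083, limma adjusted p = 0.0125). The 4 others did not pass, so 20% of the 5 rose, beside 23.1% of all tested genes. phol, a paralogue of pho, stood at -0.32 (adjusted p = 0.0513), the X-linked gene z, zeste, at -0.27 (0.0629), and grh (0.07) and psq (0.03) lay near 0. phol passed without mutant replicate 2 (0.0163), with an offset of 50 (0.0491) and with robust eBayes (0.0498). z passed without control replicate 2 (0.0350) and with eBayes without trend (0.0457). Spps lay just under the filter, at percentile 48.5. It gave 35.5, 35.3 and 33.4 in the mutant, compared with 19.3, 17.8 and 20.6 in the control. With no signal filter, where 17.6% of all genes rose, its log2 difference was 0.86 (limma adjusted p = 0.000617). All its control signals were below 28, the level of the filter, which makes the size of this rise uncertain.

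Of 28 trithorax genes other than trx, 22 had a probe set and 18 were tested. 5 rose (27.8%, beside 23.1% of all tested genes), 3 fell (16.7%, beside 32.4%) and 10 did not pass, with a median of 0.06. Bap170, a subunit of the PBAP form of the Brahma remodelling complex, gave 54.8, 63.2 and 49.6 in the mutant, compared with 32.0, 22.5 and 34.9 in the control (log2 difference 0.92, SE 0.17, limma adjusted p = 0.00296). dom, the gene of a SWI/SNF-like ATPase, gave 133.7, 113.7 and 105.7 against 68.1, 56.1 and 67.5 (0.88, SE 0.12, adjusted p = 0.000682). For both genes every mutant array lay above every control array. Of the other 2 dom probe sets, 1 gave 0.998 and the other 0.30, and the latter did not pass (adjusted p = 0.218 with no signal filter).

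The other 3 rises, named because they complete the count, were in kto, a Mediator subunit gene (0.80), brm, the ATPase of the Brahma complex (0.50), and ash2 (0.40). Control replicate 2 was the lowest array for kto and brm, at 25.5 and 146.2, and the groups overlapped for brm. kto did not pass without control replicate 2 (0.53, adjusted p = 0.119), control replicate 3 (0.0590), mutant replicate 1 (0.57, 0.0804) or mutant replicate 2 (0.0824), nor with robust eBayes (0.0586). brm did not pass without control replicate 2 (0.128), control replicate 3 (0.0938), mutant replicate 1 (0.0680) or mutant replicate 2 (0.119), and ash2 not without mutant replicate 2 (0.0566). Of the trithorax genes under the filter, Lpt (0.86, limma adjusted p = 0.00262) and polybromo (0.77, 0.00347) rose with no signal filter. In that fit 17.6% of all genes rose, and Mnn1 and e(y)3, also under the filter, did not pass. Signals of Lpt and polybromo were below 28, the level of the filter, on every array.

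Utx, the demethylase that removes the PRC2 mark, was among the genes that fell. Its signal was 87.9, 85.3 and 80.4 in the mutant, compared with 145.6, 149.7 and 135.4 in the control, with a wide gap between the groups. The log2 difference was -0.76 (SE 0.082, limma adjusted p = 0.000265), and the call held in all 16 alternative settings. nej, the X-linked gene of the acetyltransferase CBP, gave 23.0, 22.3 and 18.2 against 49.6, 30.8 and 38.4 (-0.88, SE 0.18, adjusted p = 0.00457). All its mutant signals were below 28, the level of the filter, which makes the size of this fall uncertain. Rbbp5, a subunit shared by H3 methyltransferase complexes, stood at -0.27 (adjusted p = 0.0242). Its call was lost without control replicate 1 (0.0586), control replicate 2 (0.0673), mutant replicate 1 (0.0525) or mutant replicate 3 (0.0743) and without rescaling (-0.15, 0.184).

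**Figure D4:**
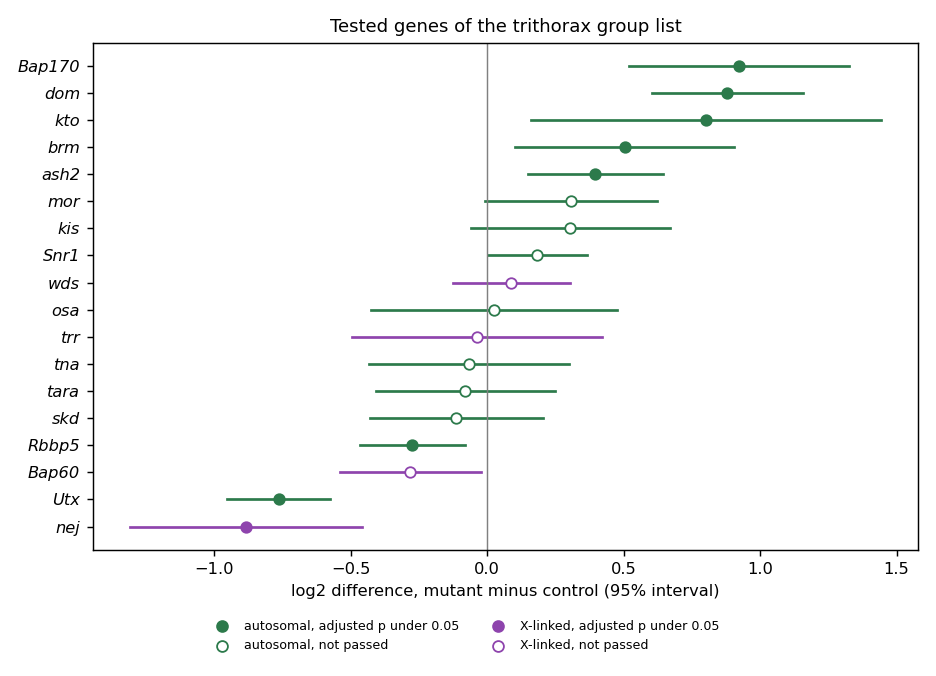
Log2 difference (mutant minus control) with its 95% limma interval for the 18 tested genes of the trithorax list, ordered by value; filled points passed and purple marks X-linked genes. Values run from 0.92 for Bap170 to -0.88 for nej, and 10 of the 18 genes did not pass.

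Over partners, PRE-binding factors and trithorax genes together, 36 regulators outside the members were tested; 8 rose (22.2%, beside 23.1% of all genes), 7 fell (19.4%, beside 32.4%) and 21 did not pass. The rises fell to 5 without control replicate 2, 5 without control replicate 3 and 4 without mutant replicate 2, and the falls to 4 without control replicate 1. With no signal filter 11 of 43 regulators rose, beside 17.6% of all genes, and 6 fell, beside 25.5%. Without rescaling there were 13 rises and 4 falls. The median over all tested genes then moved by 0.13, and the calls over all genes turned from 1805 rises and 2525 falls to 2406 and 1709.

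With no X-linked member measured, the regulators gave the nearest available comparison of X with the autosomes. Of 6 X-linked regulators (nej, Bap60, z, trr, wds and mxc), 1 fell and none rose (limma, also 0 at an unadjusted p under 0.05), beside 48.1% and 10.4% of all X-linked genes. Of these regulators, Bap60 (-0.28, limma adjusted p = 0.0617) and z (-0.27, 0.0629) were also lower at an unadjusted p under 0.05. Of 30 autosomal ones, 8 rose and 6 fell, beside 25.5% and 29.4% of genes on chromosomes 2 and 3. The X-linked median minus the autosomal median was -0.20 on the log2 scale, against -0.27 over all tested genes. On the mutant arrays it was -0.20, -0.16 and -0.36, and on the control arrays -0.02, -0.01 and 0.02, where it lies near 0 by construction. The value was -0.31 without mutant replicate 2 and -0.09 with no signal filter. It rests on 6 genes, was added after the data were seen and has no test.

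Among the classical Polycomb targets that passed the signal filter, more fell than rose. Of 43 listed, 35 had a probe set and 17 passed the filter. Of the 17, 8 fell (47.1%, beside 32.4% of all tested genes), 2 rose (11.8%, beside 23.1%) and 7 did not pass. The median was -0.28, against -0.06 over all tested genes. The falls were in toy, vg, Antp, en, ems, pnr, hh and dac, at log2 differences between -1.13 and -0.51. The other 18 of the 35 lay under the filter. With no signal filter 10 of the 35 fell (28.6%), beside 25.5% of all genes, a share near that of all genes.

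Of the 8 Hox genes, 4 had a probe set and Antp was tested. Antp, which specifies thoracic identity, gave 59.3, 41.0 and 35.3 in the mutant, compared with 71.9, 68.1 and 68.1 in the control (log2 difference -0.65, SE 0.18, limma adjusted p = 0.0139). Mutant replicate 1 lay closest to the controls, and the call was lost without mutant replicate 2 (adjusted p = 0.0502). A second Antp probe set gave -0.40 and a dim further one gave -0.05. Scr, Dfd and pb were under the filter; with no filter Scr stood at -0.76 (limma adjusted p = 0.00592), Dfd at -0.52 (0.0379) and pb at 0.30 (0.613), in a fit in which 25.5% of genes fell and 17.6% rose.

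toy, a Pax6 gene of the eye and brain that lies on chromosome 4, showed the largest fall among the targets. It gave 28.1, 23.9 and 23.9 in the mutant, compared with 54.6, 62.3 and 49.2 in the control (-1.13, SE 0.12, limma adjusted p = 0.000271). A second toy probe set, itself under the filter, gave -1.15 (limma adjusted p = 0.000566 with no signal filter), and a dim further one gave -0.49 (0.564). The median of the 48 tested genes on chromosome 4 was -0.47, and 39 of them fell and none rose. en, the posterior compartment selector, gave 43.6, 32.7 and 30.1 against 59.6, 47.2 and 57.6 (-0.64, adjusted p = 0.00992), and hh, the ligand expressed with it, stood at -0.55 (0.0131). ems and pnr both stood at -0.57 (0.00983 and 0.00772). For toy and hh the mutant means were below the filter level of 28, which makes the sizes of these falls uncertain. Without mutant replicate 2, vg (adjusted p = 0.0551), hh (0.0531) and dac (0.102) did not pass. hh was also lost without rescaling (0.0538), and dac without rescaling (0.0957) and without control replicate 1 (0.0914), control replicate 3 (0.0981) or mutant replicate 3 (0.0738).

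The 2 rises were in cad, a gut and posterior homeobox gene, and nub, a wing POU gene. cad gave 173.4, 184.9 and 173.1 in the mutant, compared with 133.0, 122.01 and 145.4 in the control (0.41, SE 0.091, limma adjusted p = 0.00585), and its groups did not overlap. nub stood at 0.35 (adjusted p = 0.0465), a call lost without control replicate 1 (0.0802), control replicate 2 (0.140), mutant replicate 1 (0.114) or mutant replicate 2 (0.105) and with no signal filter (0.0609). The 2 other nub probe sets lay near the bottom of the signal range and disagreed in sign, and their differences are not interpreted.

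**Figure D5:**
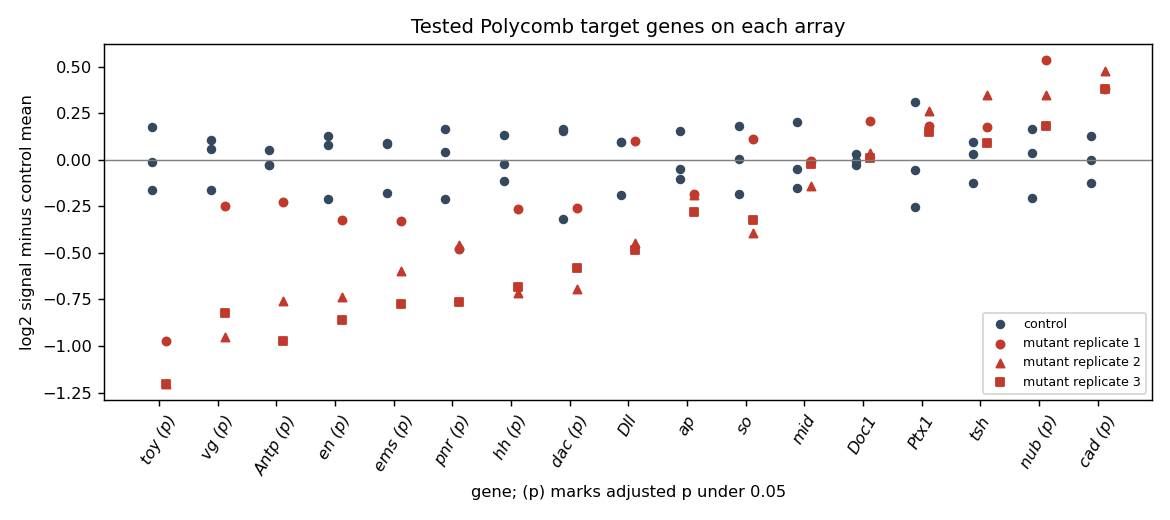
Log2 signal minus the control mean on each array for the 17 tested Polycomb targets, ordered by mutant difference; (p) marks genes that passed. For 7 of the 8 genes that fell, mutant replicate 1 lies closest to the controls.

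Among the 8 targets that fell, mutant replicate 1 was the highest mutant array for 7 and control replicate 2 the lowest control array for 7. Their median deviation was -0.29 on mutant replicate 1 and -0.73 and -0.80 on the other 2 mutant arrays. Without mutant replicate 2 the number of falls was 4 of 17 (23.5%, beside 27.1% of all tested genes), so the share was then no higher than in all genes. It was 10 without mutant replicate 1 and 6 without rescaling.

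Markers of tissues are given beside these values, and each count is to be read against the 23.1% of all tested genes that rose and the 32.4% that fell. Nervous system genes, of which 5 of 14 were tested, had a median of -0.53 with 3 falls (elav, Appl and Snap25) and no rise (limma, also 0 at an unadjusted p under 0.05). The other 2 tested genes, futsch (0.33, limma adjusted p = 0.138) and cpx (0.12, 0.323), were higher without passing. The median therefore does not describe all 5. Of the 5, elav, Appl and futsch are X-linked. Relative to the X-linked median of -0.29, elav stood at -0.24, Appl at -0.73 and futsch at 0.62. Among the genes under the filter, cac, Rdl and brp were lower and ChAT, nSyb, para and VGlut higher, and only cac passed with no signal filter. elav did not pass without control replicate 3 (0.0542), without mutant replicate 2 (0.0567) or without rescaling (0.0592). The summed signal over 12 probe sets was 402 to 430 in the mutant against 466 to 479 in the control, with brp, cac, ChAT, nSyb, para, Rdl and VGlut under the filter and none at 0. The median of the 5 tested genes was -0.26 on mutant replicate 1 and -0.69 and -0.64 on the others. Proliferation genes, a measure of dividing tissue, had 1 rise (10%) and no fall among 10 (limma, 2 falls at an unadjusted p under 0.05), and summed to 1045 to 1126 in the mutant against 1006 to 1058 in the control. Their part in the E(z) difference and in the falls of the targets was not tested.

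Fat body genes had 5 rises (62.5%) and 1 fall among 8, with sums of 9315 to 10999 in the mutant against 9285 to 9632 in the control. Muscle genes had 6 rises (54.5%) and 1 fall among 11 (7513 to 9858 and 7088 to 8121), and midgut genes 3 rises (37.5%) and no fall among 8 (limma, 1 fall at an unadjusted p under 0.05; sums of 7750 to 8887 and 8057 to 8219). Among the midgut rises, Mal-A3 (26.8, 8.97 and 5.68) and lambdaTry (6.57, 24.5 and 5.54) were below the filter level of 28 on all control arrays. They passed the filter through their mutant signals, so the midgut share of rises is not read as a result. Testis genes had 8 rises (53.3%) and 3 falls among 15 (6315 to 7289 and 5110 to 5767). A further 7 testis genes lay under the filter. With no signal filter, where 25.5% of all genes fell, nht (-0.88, limma adjusted p = 0.000614), comr (-0.69, 0.00988) and can (-0.48, 0.0076) fell. Of the rest, achi, tomb and aly were lower without passing, and dj stood at 0.14. All 9 salivary glue genes of late larvae were tested, with 2 rises and 6 falls (66.7%). Sgs4, ng1, ng2 and ng3 are X-linked: Sgs4 (-0.68) and ng2 (-1.34) fell, and ng1 (1.65) and ng3 (0.55) rose. Falls of the autosomal genes Sgs3 (-0.17), Sgs5 (-0.15), Sgs7 (-0.15) and Sgs8 (-0.23) were small. Without rescaling the median over all tested genes moved by 0.13, and the glue calls were not examined in that setting. The sums of the 9 glue genes were 13433 to 14424 in the mutant and 15835 to 16552 in the control. Genes of the glue and of the testis thus had signal on every array, as markers of the labelled stage and sex.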

How the data were processed

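Deposited intensity values, linear and 1 per probe set and array, were the starting point. The submitters' processing notes list GCOS 1.2 as the software. The authors, per the design text, screened genes by detection calls and brought autosomal medians to 100; the deposited columns have medians over all probe sets of 102 to 108, so the set of genes behind that step is unknown. From 113 to 169 values per array were not above 0 and were set to the smallest positive value of the whole table.

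Probe sets were named through a platform table, updated by gene ID through RefSeq (assembly Release 6 plus ISO1 MT), which served for names, chromosomes and gene order only. Of 18952 probe sets, 183 were controls, 13647 had 1 gene, 402 several and 4720 none listed. The upper 50% by mean log2 signal were kept (9384 probe sets, 7801 genes), with the brightest probe set of each gene, and each array was rescaled to an autosomal median of 100. Genes were tested on log2 signal by a moderated linear model with an intensity trend (limma 3.58.1, R 4.3.3) and group as the only term. The fit was also run on simulated data with far fewer changed genes than here, which checks the code and not the calls in these data. RNA preparations were independent, but nothing in the labels says that they came from separate crosses, so p-values measure the spread between preparations. The members, lists and tests were chosen with earlier results of these data known. Named genes were all members, up to 4 genes of smallest p per pathway list and all measured Hox genes, plus genes marked in the text as chosen after their values were seen and the genes that complete a count.

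Alternatives were no filter, the upper 75% of probe sets, 3 other scalings, an offset of 50, eBayes without trend or robust, the mean over probe sets, a replicate block and leaving out each array.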

Additional observations from a re-analysis of the deposited data

How the results depend on the processing

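Of the members, E(z) rose and none fell in the main setting and in every alternative run except without mutant replicate 2; on leaving out 1 array the number that rose ran from 0 to 1 and the number that fell stayed at 0. Regulators that rose ran from 4 to 9 and those that fell from 4 to 6 on leaving out 1 array, and without rescaling they numbered 13 and 4. With no signal filter they numbered 11 and 6 of 43. Targets that fell ran from 4 to 10 and those that rose from 1 to 2 on leaving out 1 array, with 1 rise with no signal filter. The X-linked minus autosomal value of the regulators ran from -0.31 to -0.14 on leaving out 1 array and was -0.094 with no filter and -0.094 with the upper 75% of probe sets, where 43 regulators were tested. The cause of these moves was not tested. With a replicate block 1 member rose and targets that rose numbered 1, and Sfmbt (limma adjusted p = 0.0585), Rbbp5 (0.0581), nub (0.0759) and l(3)73Ah (0.128) did not pass. The labels do not say that the replicate numbers pair the arrays. Deviations of same-numbered arrays correlated at -0.34, -0.06 and -0.38. These values cannot settle whether arrays were paired, as the deviations were centred within each group of 3. Over the 67 single genes examined, 898 values kept their side of the threshold, 55 lost it and 28 gained it, and no call turned its direction. The planned comparison of X-linked with autosomal members could not be run. Signal under the filter limits Psc, esc and 18 of the targets, among them the Hox genes Scr, Dfd and pb.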
